A study of Mus musculus with 10 samples.

Results

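A set of 44 genes that copy DNA or act in S phase, the stage of the cell cycle in which the genome is duplicated, was followed in irradiated mouse lung. The set was chosen by gene name, from the replicative helicase, origin licensing, polymerases, the sliding clamp, nucleotide supply, chromatin assembly and the switch from G1 into S phase, out of 45786 genes in the deposited tables. C57BL/6J mice, an inbred laboratory strain, received 12.5 Gy of γ-radiation to the whole thorax or, as controls of the same age, 0 Gy. Whole-lung cell suspensions were sequenced after 24 hours and after 1, 4, 12 and 32 weeks, and each of the 10 libraries holds RNA pooled from 3 mice. Each treatment had 1 pool at each time, so irradiation and any other difference between a pair of pools cannot be told apart at a single time. The labels give no age in weeks, sex or further allele, and no sorting of cells.

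DNA replication starts when the origin recognition complex, Cdc6 and Cdt1 load the ring-shaped MCM helicase onto DNA in G1, and Cdc45 and the GINS complex then switch the helicase on. Polymerases, a sliding clamp and its loader copy the strands, while ribonucleotide reductase, thymidylate synthase and thymidine kinase supply the building blocks. Most of these genes are transcribed as cells enter S phase, through E2F transcription factors held back by the RB family, and p21, encoded by Cdkn1a, keeps RB active after DNA damage. In an adult lung few cells divide, and the level of such transcripts in whole tissue is a known measure of how many cells cycle.

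The libraries held 8679551 fragments in the 12-week control to 17473108 in the 4-week irradiated pool before the authors' scaling. All 44 genes passed the filter on low counts, among 15625 genes tested. Markers of alveolar type 2 cells, endothelium, fibroblasts, macrophages, neutrophils and T, B, NK and plasma cells were above 0 in every pool. In the controls, those of alveolar type 2 cells summed to 23080 to 41102 CPM (counts relative to library size, with sizes adjusted by TMM). No other epithelial list was examined. Of 9 erythroid markers, Klf1 was at 0 in the 24-hour and 12-week controls. The 6 thymocyte markers summed to 52.0 to 340.3 CPM in the controls. The library chemistry does not keep the strand, and 15 of the 44 genes share exon bases with a gene on the opposite strand, so their fragments cannot be told apart from those of that gene. In whole tissue, fewer cells of a type and less RNA per cell cannot be told apart either.

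Per length, the set spanned a wide range of levels in unirradiated lung. Rfc2, a clamp loader subunit, had the highest mean level at 64.3 ± 8.05 FPKM (fragments relative to transcript length and library size; SD, n = 5 control pools). Pcna, the sliding clamp, followed at 40.4 ± 6.54 and Rpa1, the large subunit of the single-strand binding protein, at 34.8 ± 5.68 FPKM. Pcna and Rpa1 did not differ beyond their spread, and Rfc2 lay above both. Rfc2 overlaps Lat2 on the other strand. Mcm6 stood at 27.9 ± 4.83, Gins4 at 27.4 ± 3.02, Rrm2 at 21.2 ± 2.90 and Tyms at 19.5 ± 4.24 FPKM. Spreads overlapped between Mcm6 and Gins4 and between Rrm2 and Tyms. The lowest levels were those of Pole at 1.59 ± 0.32, Dscc1 at 1.15 ± 0.403 and Orc1 at 0.405 ± 0.332 FPKM. With edgeR, 0 of the 44 genes passed for a slope over time in the controls (background 0.0% of all genes at the adjusted threshold). An unadjusted p under 0.05 was found for 0 of them and for 673 of all 15625 genes. DESeq2 also called 0 of them, and of all genes 20 higher and 6 lower.

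One day after irradiation, the whole set lay low. All 44 genes were below their matched control pool, with a median log2 difference of −0.90 against −0.00 over all genes tested, and 42 lay below all 5 controls, where 21.2% of all genes did. The exceptions were Pole2 and E2f1. Against the 5 controls, edgeR's quasi-likelihood test called 7 of the 44 lower (background 0.454% of all genes) and 0 higher (background 0.602%), at an adjusted p threshold of 0.05. Another 29 had an unadjusted p under 0.05 only, making 36 in all, where 6.27% of all genes were lower by that measure. The genes that fell were Mcm2, Mcm5, Rrm2, Tk1, Dscc1, Uhrf1 and Ccne2. Summed over the set, 908 CPM remained in the irradiated pool, against 1543 CPM in the matched control and 1657 ± 93.9 CPM (SD, n = 5) in all controls. Dscc1 and Orc1 were both at 0 fragments in that pool. Set at the lowest fold that a floor of 3 fragments allows, both still lay below the median, which that floor could not move.

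**Figure D1:**
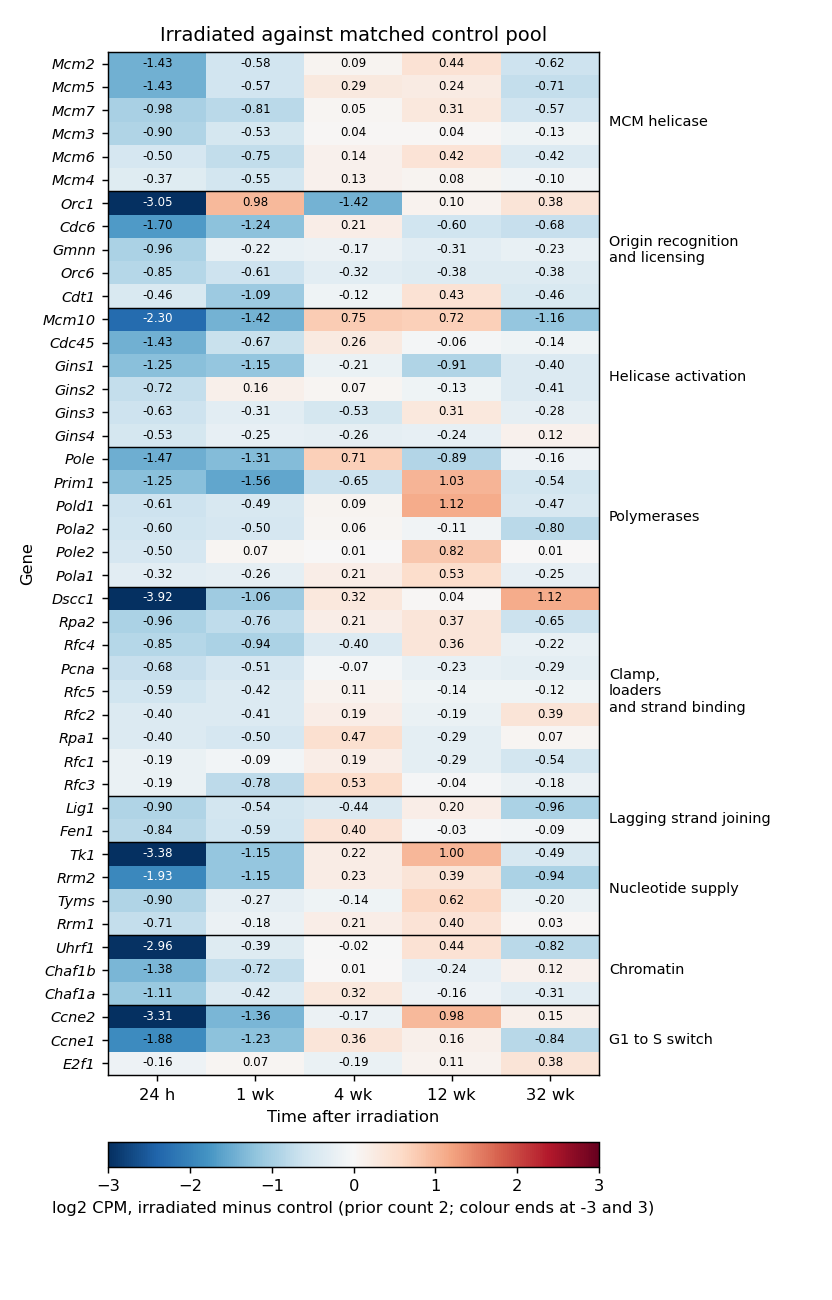
Each cell gives a gene's log2 CPM in the irradiated pool minus that in the control pool of the same time (prior count 2, 1 pool each, no test), for 44 genes in rows grouped by role and 5 times in columns. The 24-hour column is negative for all 44 genes, the 1-week column for 40, and the 4-week and 12-week columns hold both signs.

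The MCM helicase, whose 6 subunits form the ring that unwinds DNA, was lower as a whole at 24 hours, and Mcm2 and Mcm5 fell. In time order from 24 hours to 32 weeks, Mcm5 stood at 58.1, 68.7, 66.6, 62.4 and 61.9 CPM in the control pools. The irradiated pools held 21.4, 46.3, 81.5, 73.7 and 37.8 CPM. The irradiated level was thus below every control at 24 hours, 1 week and 32 weeks and above every control at 4 and 12 weeks. At 24 hours the log2 change of Mcm5 was −1.57 ± 0.21 (SE), 2.97-fold lower (edgeR adjusted p = 0.00792). Mcm2 stood at 59.3, 63.3, 59.8, 48.1 and 65.9 CPM in controls and at 21.9, 42.1, 63.6, 65.2 and 42.9 CPM in irradiated pools. It was low in the same 3 irradiated pools, and at 24 hours its log2 change was −1.44 ± 0.24 (2.70-fold lower, adjusted p = 0.0232). The other subunits did not pass at 24 hours, with log2 −1.04 ± 0.23 for Mcm7 (adjusted p = 0.0752), −0.90 ± 0.20 for Mcm3 (0.0695), −0.80 ± 0.22 for Mcm6 (0.168) and −0.58 ± 0.19 for Mcm4 (0.264). All 6 lay below every control there, and again at 1 week, and 5 of the 6 did at 32 weeks. Mcm7 shares exon bases with Cops6 and Ap4m1 on the opposite strand.

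Of the 5 genes called at 24 hours that have a promoter window in RefSeq, Mcm5 and Uhrf1 held an E2F site upstream, here any of TTTGGCGC, TTTCCCGC, TTTGCCGC and TTTCGCGC on either strand, and their promoters are shown for that. The 250 bases before the RefSeq start of Mcm5 (GRCm38.p6, plus strand, chr8:75109259-75109508) hold a pair of overlapping sites on opposite strands, from −153 to −142 relative to the start. They are in capitals, with the sequence written 5′ to 3′. Mcm6 is shown for comparison, a choice made after its sequence was seen, since its 250 bases (minus strand, chr1:128359706-128359955) hold 3 such sites, at −110 to −99 (an overlapping pair) and −47 to −40.
Mcm5: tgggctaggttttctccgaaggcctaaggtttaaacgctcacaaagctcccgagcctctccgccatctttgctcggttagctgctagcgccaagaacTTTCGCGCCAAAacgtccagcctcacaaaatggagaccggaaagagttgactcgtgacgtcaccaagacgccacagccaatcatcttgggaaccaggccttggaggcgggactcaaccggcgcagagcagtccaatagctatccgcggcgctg
Mcm6: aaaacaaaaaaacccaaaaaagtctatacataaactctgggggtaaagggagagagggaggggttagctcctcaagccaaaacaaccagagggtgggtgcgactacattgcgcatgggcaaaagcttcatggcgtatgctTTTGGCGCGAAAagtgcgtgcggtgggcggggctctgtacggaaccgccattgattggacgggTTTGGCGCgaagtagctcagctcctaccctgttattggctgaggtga
At 24 hours Mcm5 passed the test and Mcm6 did not, though both lay below every control. The part of these sites was not tested. A site in these letters is a match and not a measured binding site.

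Genes of origin recognition and of licensing, the loading of the helicase onto origins, were all below every control at 24 hours. None of the 5 passed. Cdc6, an ATPase that helps to load MCM, was at 5.64, 12.5, 10.5, 10.2 and 8.15 CPM in controls and at 1.63, 5.22, 12.1, 6.67 and 5.02 CPM in irradiated pools. Its irradiated level was lowest at 24 hours, with a log2 change of −2.55 ± 0.55 (SE; adjusted p = 0.0688), and the adjusted p was 0.0258 without the filter on low counts and 0.039 without the 24-hour control. Cdt1, the other loading factor, was at 13.2 CPM against a control range of 14 to 29.7 CPM (log2 −0.75 ± 0.40, adjusted p = 0.517). Gmnn encodes geminin, which blocks Cdt1 after origins have fired, and was at 12.3 against 20.4 to 27.2 CPM (−0.91 ± 0.27, adjusted p = 0.203). Orc6, a subunit of the origin recognition complex, was at 13 against 21.1 to 23.6 CPM (−0.75 ± 0.25, adjusted p = 0.264). Orc1, the ATPase subunit of that complex, had 0 fragments at 24 hours against 18 in the matched control, at least 5.38-fold lower with a floor of 3 fragments in the irradiated library. Its counts were low everywhere, with 13 to 73 fragments in the controls, and its adjusted p was 0.159. The other irradiated pools held 1.64 to 2.07 CPM of Orc1, within the control range of 0.882 to 4.66 CPM.

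Genes that switch the loaded helicase on were lower by differing amounts. Mcm10, which helps to start unwinding, stood at 9.02, 11.3, 8.74, 4.69 and 9.27 CPM in controls and at 1.70, 4.11, 14.8, 7.85 and 4.06 CPM in irradiated pools. The irradiated pools were thus below every control at 24 hours, 1 week and 32 weeks and above every control at 4 weeks, a 1-pool difference at each time. At 24 hours the log2 change of Mcm10 was −2.35 ± 0.56 (adjusted p = 0.103, and 0.039 without the 12-week control). Cdc45, a helicase cofactor, was at 3.70 CPM against 10.2 to 13.7 CPM in controls (−1.68 ± 0.36, adjusted p = 0.0686). Its exons overlap those of Ufd1 on the other strand. The 4 GINS genes encode a ring that ties helicase and polymerase together, and their 24-hour log2 changes were −1.39 ± 0.46 for Gins1, −0.57 ± 0.32 for Gins2, −0.55 ± 0.40 for Gins3 and −0.44 ± 0.19 for Gins4. None of the 6 genes passed, and all 6 lay below every control.

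The polymerase genes were lower by a median log2 of −0.61 against the matched control at 24 hours, and 0 of 6 passed. Pole and Prim1, the catalytic subunit of the leading-strand polymerase and the primase that makes RNA primers, had the largest differences of these genes. Pole was at 3.99 against 9.25 to 19.4 CPM in controls (log2 −1.73 ± 0.47, adjusted p = 0.159), and Prim1 at 6.06 against 9.50 to 23.0 CPM (−1.39 ± 0.46, adjusted p = 0.258). Pola1, the catalytic subunit of the priming polymerase, was at 13.6, 18.8, 23.1, 22.3 and 12.7 CPM in controls and at 10.9, 15.7, 26.8, 32.3 and 10.7 CPM in irradiated pools. Both groups of Pola1 were high at 4 and 12 weeks and low at 24 hours and 32 weeks. The 24-hour log2 change was −0.74 ± 0.39 (adjusted p = 0.516), and that of its partner Pola2 was −0.83 ± 0.26 (0.214). Pold1, of the lagging-strand polymerase, was at 28.5 against 29.6 to 68.6 CPM (−0.89 ± 0.40, adjusted p = 0.42). Pole2, an accessory subunit of the leading-strand enzyme, was at 5.92 CPM within the control range of 4.81 to 8.43 CPM (−0.12 ± 0.43, adjusted p = 0.962). Pole shares exon bases with the opposite-strand gene Gm15792.

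Among the clamp, its loaders and the strand-binding proteins, Dscc1 fell and the abundant genes showed small differences. Dscc1 belongs to an alternative clamp loader that acts in sister chromatid cohesion. It had 35, 50, 31, 24 and 27 fragments in the controls and 0, 18, 46, 37 and 45 in the irradiated pools. At 24 hours it was at least 10.5-fold lower than its matched control with a floor of 3 fragments in that library (edgeR adjusted p = 0.0361), and by 32 weeks its irradiated level was above every control. The counts are few, and Gm41325 overlaps its exons on the other strand. Pcna was at 69.1 CPM at 24 hours against 91.3 to 112.1 CPM in the controls (log2 −0.60 ± 0.18, adjusted p = 0.218). The loader genes had log2 changes of −1.05 ± 0.30 for Rfc4, −0.67 ± 0.23 for Rfc5, −0.58 ± 0.20 for Rfc2, −0.31 ± 0.19 for Rfc1 and −0.29 ± 0.33 for Rfc3, none past the threshold. For the strand-binding genes they were −1.0 ± 0.29 for Rpa2 and −0.58 ± 0.25 for Rpa1. All 9 genes of this role lay below every control at 24 hours, and by fold the spread within the role was wide. Rfc4, Rfc2 and Rfc5 each overlap a gene on the other strand, Eif4a2, Lat2 and Wsb2.

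The genes that join lagging-strand fragments were lower by nearly the same amount. Fen1, the nuclease that removes primers, was at 18.6 CPM against 33.4 to 40.0 CPM in controls (log2 −0.99 ± 0.22, adjusted p = 0.0814). Lig1, the ligase that seals the fragments, was at 12.2 against 17.7 to 28.6 CPM (−0.90 ± 0.31, adjusted p = 0.271). Both lay below every control and neither passed.

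Of the nucleotide supply genes, Rrm2 and Tk1 fell and their 2 companions did not pass. Rrm2, the S phase subunit of ribonucleotide reductase, stood at 40.9, 49.2, 61.5, 49.0 and 67.8 CPM in controls and at 10.6, 22.1, 71.9, 64.3 and 35.2 CPM in irradiated pools. Its 24-hour, 1-week and 32-week irradiated pools lay below every control, and its 4-week pool above every control. At 24 hours its log2 change was −2.33 ± 0.33, 5.04-fold lower (adjusted p = 0.0104). Tk1, the thymidine kinase of cycling cells, stood at 22.4, 20.1, 17.2, 8.80 and 18.5 CPM in controls and at 2.0, 9.01, 20, 17.8 and 13.1 CPM in irradiated pools. Only the 24-hour irradiated pool was below every control, at 8.93% of its matched pool (log2 −3.12 ± 0.57, adjusted p = 0.0361). The log2 change and its p are against the 5 controls, not the matched pool alone. Afmid overlaps Tk1 on the other strand. Rrm1, the large reductase subunit, was at 53.3 against 77.7 to 92.8 CPM (−0.69 ± 0.18, adjusted p = 0.145), and Tyms, thymidylate synthase, at 11.5 against 15.5 to 28.1 CPM (−0.92 ± 0.34, adjusted p = 0.312). The smaller reductase subunit was thus at 26.0% and the large one at 61.1% of its matched control.

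Rrm2 held no E2F site of these letters in its window, and its 250 bases (plus strand, chr12:24708004-24708253) are shown, chosen after the sequences were seen, for their single CCAAT box, in capitals at −50 to −46.
Rrm2: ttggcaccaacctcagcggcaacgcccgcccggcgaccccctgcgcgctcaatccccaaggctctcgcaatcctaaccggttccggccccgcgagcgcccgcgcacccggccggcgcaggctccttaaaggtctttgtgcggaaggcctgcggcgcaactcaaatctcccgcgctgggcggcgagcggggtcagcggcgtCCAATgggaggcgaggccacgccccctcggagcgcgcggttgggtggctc
No match says only that the letters searched are not in this window.

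All 3 chromatin genes were low at 24 hours, and Uhrf1 fell. Uhrf1 encodes a protein that is needed to carry DNA methylation over to the new strand. It stood at 25.3, 33.9, 44.1, 23.5 and 43.8 CPM in controls and at 3.10, 25.8, 43.5, 31.9 and 24.6 CPM in irradiated pools. The 24-hour pool alone was outside the range of the controls, 10.9-fold lower than their fitted mean (log2 −3.45 ± 0.48, adjusted p = 0.0104), while the 1-week pool was back among them. Chaf1b and Chaf1a, subunits of the factor that places histones on new DNA, were at 6.06 CPM against 16.0 to 20.1 CPM in controls (−1.58 ± 0.32, adjusted p = 0.0505) and at 6.36 against 12.5 to 16.7 CPM (−1.15 ± 0.33, adjusted p = 0.177). RefSeq gives Uhrf1 a pair of starts, and the upstream window of the second (plus strand, chr17:56304063-56304312) holds 1 E2F site, in capitals, at −185 to −178.
Uhrf1: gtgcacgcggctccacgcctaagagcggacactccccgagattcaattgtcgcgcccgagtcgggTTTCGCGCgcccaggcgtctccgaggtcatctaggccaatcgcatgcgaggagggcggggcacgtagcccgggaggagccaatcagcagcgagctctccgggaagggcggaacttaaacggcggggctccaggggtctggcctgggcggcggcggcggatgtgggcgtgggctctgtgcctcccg
The window of the first start held none.

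At the switch from G1 into S phase, the cyclin E genes were low at 24 hours and E2f1 was not. Ccne2 and Ccne1 encode cyclins that activate Cdk2. Ccne2 stood at 10.4, 12.2, 13.8, 4.93 and 8.15 CPM in controls and at 0.90, 4.66, 12.3, 9.89 and 9.08 CPM in irradiated pools, and fell at 24 hours (log2 −3.48 ± 0.69, adjusted p = 0.0476). Its 24-hour pool held 12 fragments against 157 in the matched control, and the 1-week pool was also below every control. Ints8 overlaps Ccne2 on the other strand. Ccne1 was at 2.22 CPM against 6.82 to 11.7 CPM in controls (−2.03 ± 0.48, adjusted p = 0.0934). E2f1, the transcription factor itself, stood at 27.3, 31.4, 23.0, 23.6 and 19.6 CPM in controls and at 24.5, 33.0, 20.1, 25.5 and 25.5 CPM in irradiated pools. These groups overlapped at 24 hours and at 3 of the other 4 times, and the 1-week pool was the highest of all 10. Its 24-hour log2 change was −0.03 ± 0.28 (adjusted p = 0.985), with a sign that turned on the FPKM scale (0.06) and without the 1-week control (0.07).

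**Figure D2:**
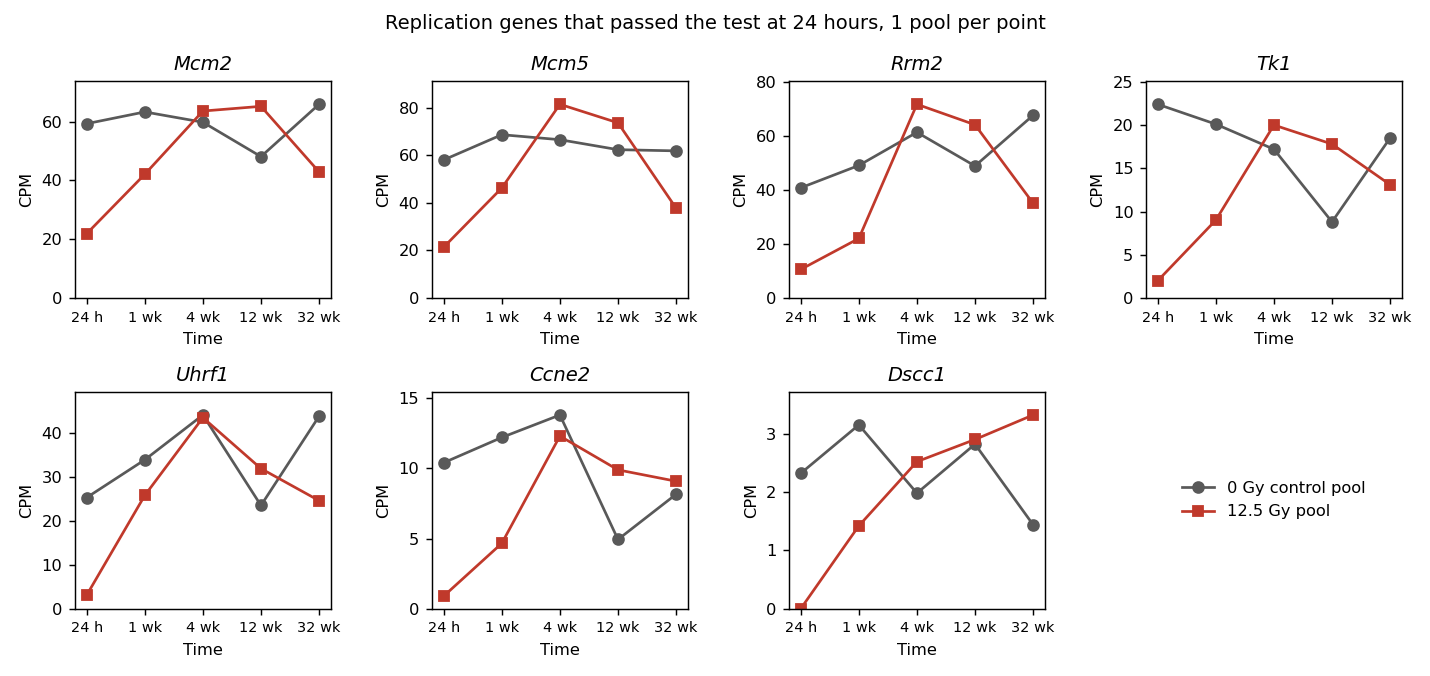
Level in CPM (y axis, from 0) by time (x axis) of the 7 genes that fell at 24 hours, with 1 point per pool, grey circles for 0 Gy and red squares for 12.5 Gy. Each red line starts below all grey points, and at 4 weeks the red points of Mcm5 and Rrm2 lie above every grey point.

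Calls of single genes at 24 hours depended on the controls and the tool. Mcm5, Rrm2 and Uhrf1 passed under each of the 12 alternatives tried. Without the 1-week control the count of genes called lower was 3 in place of 7, and the adjusted p was 0.0627 for Mcm2, 0.088 for Tk1, 0.0776 for Dscc1 and 0.107 for Ccne2. DESeq2 called 23 of the 44 lower (background 2.06% of all genes), and limma on log2(FPKM + 1) called 4 (background 0.243%).

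Across the set, 35 of the 44 genes matched a promoter window in RefSeq, from 250 bases before to 50 after the start (GRCm38.p6). An E2F site was present in 14 of the 35 (40.0%), against 4.39% of 11240 tested genes with a window and 2.60% of 27025 genes in the table. CCAAT boxes were present in 60% of the set and 42.2% of tested genes. The CHR element (TTTGAA or TTCGAA), known from promoters of mitosis genes, was in 17.1% of the set and 16.9% of tested genes. Among 20 mitosis genes with a window, the E2F site and the CHR element changed places, with a CHR element in 75%, a CCAAT box in 85% and an E2F site in 5.0%. Within the set, the 24-hour differences of genes with and without a matched E2F site overlapped. Their median log2 against the matched control was −0.76 in the 14 genes with a match and −0.90 in the 21 without. Absence of a match says only that these letters were not found, and the part of E2F in the differences was not tested. Both strands were searched, overlapping matches count once per gene, and TTCGAA is its own reverse complement.

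One week after irradiation the set was still low, by less. Of the 44 genes, 40 lay below their matched control (median log2 −0.56; 0.03 over all genes) and 34 below all 5 controls, where 18.8% of all genes did. The sum stood at 68.6% of its matched control, 1222 against 1780 CPM. Even so 0 genes of the set passed with edgeR (background 0.0192% of all genes in either direction), 14 were lower at an unadjusted p under 0.05 (background 4.45%), and DESeq2 called 2 lower (background 0.954%). Rrm2 had the smallest adjusted p (log2 −1.28 ± 0.30, adjusted p = 0.225), followed by Mcm7 at 0.313 and Prim1 at 0.339. Prim1 was at 5.45 CPM, its lowest level in any pool and 33.3% of its matched control. The genes above their matched control were Gins2, Pole2, E2f1 and Orc1. Over the 44 genes, the differences of 24 hours and 1 week from their own matched controls had a Spearman rho of 0.51, a description across genes that share the libraries.

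Between 4 and 12 weeks the set was near or slightly above its controls. At 4 weeks 29 genes lay above and 15 below the matched control (median log2 0.09; 0.03 over all genes), 10 were above all 5 controls (19.1% of all genes) and 5 below (16.8%). All 6 MCM genes were above their matched control, from 0.04 for Mcm3 to 0.29 for Mcm5. At 12 weeks 26 lay above and 18 below (median 0.11; 0.00), 6 were above all controls (22.0% of all genes) and 7 below (21.4%). Of these 4 counts, the one above all controls at 4 weeks was over the share of all genes, and the other 3 were under it. Pold1, Prim1 and Tk1 stood at 218.1%, 206.4% and 202.4% of the 12-week control, a control pool in which each of these was lowest among the controls. With edgeR 0 of the set passed at 4 weeks (background 0.0576%) or 12 weeks (background 0.0%), with 0 and 1 at an unadjusted p under 0.05, the 1 being Pola1 (higher, as 4.95% of all genes were by that measure; log2 0.83 ± 0.33, adjusted p = 0.425 at 12 weeks). DESeq2 called 0 at both times, and of all 15625 genes 38 higher and 50 lower at 4 weeks and 61 and 161 at 12 weeks. With edgeR, 1125 of all genes had an unadjusted p under 0.05 at 4 weeks.

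By 32 weeks the set lay below its matched control again in part. There 34 of 44 genes were below it (median log2 −0.28; 0.02 over all genes) and 18 lay below all 5 controls, against 23.3% of all genes. The sum was 1413 against 1697 CPM, 83.3%. Scaling moved this time most. By total counts 40 of the 44 lay below the matched control (median −0.46), but on the FPKM scale 23 did (median −0.06). By total counts the median of all genes was −0.15 and on the FPKM scale 0.32, and relative to all genes the set's median was −0.30 by TMM, −0.31 by total counts and −0.38 by FPKM. Mcm5 had the smallest p (log2 −0.75 ± 0.19, adjusted p = 0.0921), and 0 genes passed with edgeR (background 0.826% in either direction). With an unadjusted p under 0.05 there were 3 lower (background 6.92%), Mcm5, Lig1 and Rfc1. DESeq2 called 1 lower, near its background of 2.06%. Lig1 was at 12.0 against 17.7 to 28.6 CPM in the controls and Rfc1 at 35.7 against 47.9 to 57.3 CPM. In the other direction, Rfc2 at 130.7 CPM and Dscc1 at 3.32 CPM were above all their controls.

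Over all 5 times in 1 fit, 0 of the 44 genes passed with edgeR (background 0.0%), in a test that counts differences between times as spread. The median log2 change was −0.37, 42 genes were below 0, and 7 had an unadjusted p under 0.05, all lower (background 4.47%). Without the 24-hour pair the median was −0.16 and 1 gene had such a p. DESeq2 called 0 of the set over the 5 times, and of all 15625 genes 149 higher and 102 lower. Orc6 had the smallest p. It stood at 23.6, 21.7, 21.1, 21.4 and 21.7 CPM in controls and at 13, 14.1, 16.9, 16.3 and 16.7 CPM in irradiated pools. All irradiated pools of Orc6 were below all controls, with matched log2 differences from −0.85 at 24 hours to −0.32 at 4 weeks, and the fitted change was −0.51 ± 0.15 (adjusted p = 0.283). Vps35 overlaps Orc6 on the opposite strand. Pcna, at 110.9, 112.1, 91.3, 106.9 and 101.9 CPM in controls and 69.1, 78.8, 86.8, 91.2 and 83.4 CPM in irradiated pools, also had groups that did not overlap, though by 0.1 CPM (−0.36 ± 0.11, adjusted p = 0.314). These were 2 of the 44 genes, and 1.47% of all genes separated in the same direction. Next by p came Gins1 (−0.79 ± 0.26, 0.336), Lig1 (−0.53 ± 0.19, 0.377) and Cdc6 (−0.80 ± 0.30, 0.38). Orc6, Pcna, Gins1 and Gmnn were lower in 5 of 5 pairs, 4 genes where 5.70% of all genes were, and 21 genes were lower in 4 or 5 pairs (21.9% of all genes).

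**Figure D3:**
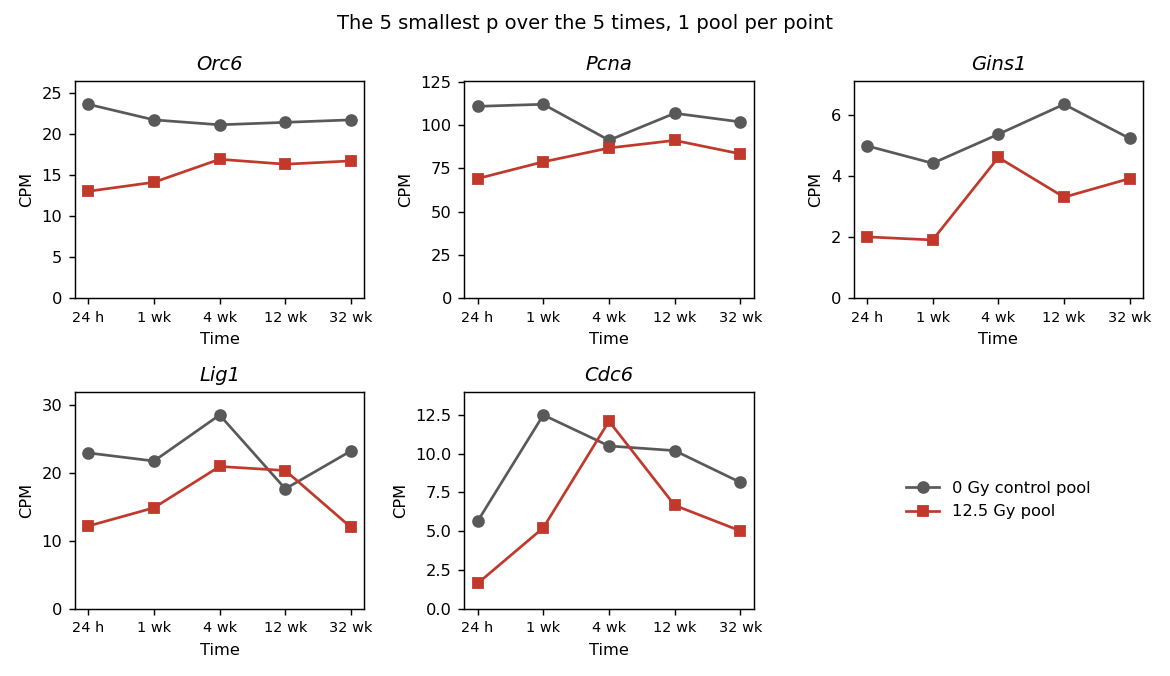
Level in CPM (y axis, from 0) by time (x axis) for the 5 genes with the smallest p over the 5 times, 1 point per pool, grey circles for 0 Gy and red squares for 12.5 Gy. For Orc6 and Pcna every red point lies below every grey point, and for Lig1 and Cdc6 the lines cross once or more.

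Whether the effect at 24 hours differed from that at later times was tested directly. None of the 44 genes passed (background 0.0064%, 1 gene of all), although 12 had an unadjusted p under 0.05, all with a lower value at 24 hours (background 1.77%). Uhrf1 was nearest, its effect at 24 hours being lower by a log2 of −2.82 ± 0.54 than later (edgeR adjusted p = 0.786). For Mcm5 that difference was −1.25 ± 0.45 and for Rrm2 −1.58 ± 0.63, both at an adjusted p of 1.0. DESeq2 called 2 of the set lower (background 0.0576%). A trend of the effect over log2 days gave 0 genes with edgeR (background 0.0%), 8 at an unadjusted p under 0.05, all toward higher values later (background 3.4%), and 2 with DESeq2 (background 0.166%). The calls at 24 hours therefore do not show that those genes responded differently at later times.

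Other genes of DNA replication, taken from lists made with earlier results of these data known, were less uniform. Of 35 further fork and origin genes, 30 lay below the matched control at 24 hours (median log2 −0.45) and 3 fell, where 0.454% of all genes did. They were Wdhd1 (−2.39 ± 0.34 SE, adjusted p = 0.0108), which couples helicase and polymerase, Top2a (−3.0 ± 0.42, 0.0104), which untangles DNA, and Pclaf (−3.17 ± 0.49, 0.0171), a clamp-binding protein. The call of Wdhd1 was lost with limma on log2(FPKM + 1). Medians were −0.41 for 13 genes of chromatin behind the fork, −0.19 for 15 other nucleotide genes and −0.09 for 13 checkpoint genes of replication stress, with 0 calls in each by edgeR and 6, 3 and 4 genes at an unadjusted p under 0.05 in either direction, where 11.9% of all genes had one. Of 23 replication-dependent histone genes listed, 10 passed the filter, with a median of −0.95, 0 calls by edgeR and 2 genes at such a p. Their transcripts carry no poly(A) tail and were few here, 38.2 CPM over 22 of these genes in the 24-hour control. The 25 mitosis genes stood lowest of these lists, all below the matched control with a median of −2.04, and 15 fell, read against the same 0.454%. Ccnb2, cyclin B2, was at 3.03 against 29.5 CPM in its matched pool (adjusted p = 0.00265), and Tpx2 (0.00265), Nusap1 (0.00534) and Birc5 (0.00706) of the spindle and chromosome passengers also fell. Their sum was 26.5% of the matched control, against 58.8% for the 44 replication genes. This order held at 1 week (56.7% and 68.6%) and 32 weeks (60.3% and 83.3%), and at 4 and 12 weeks both sums were above the control.

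**Figure D4:**
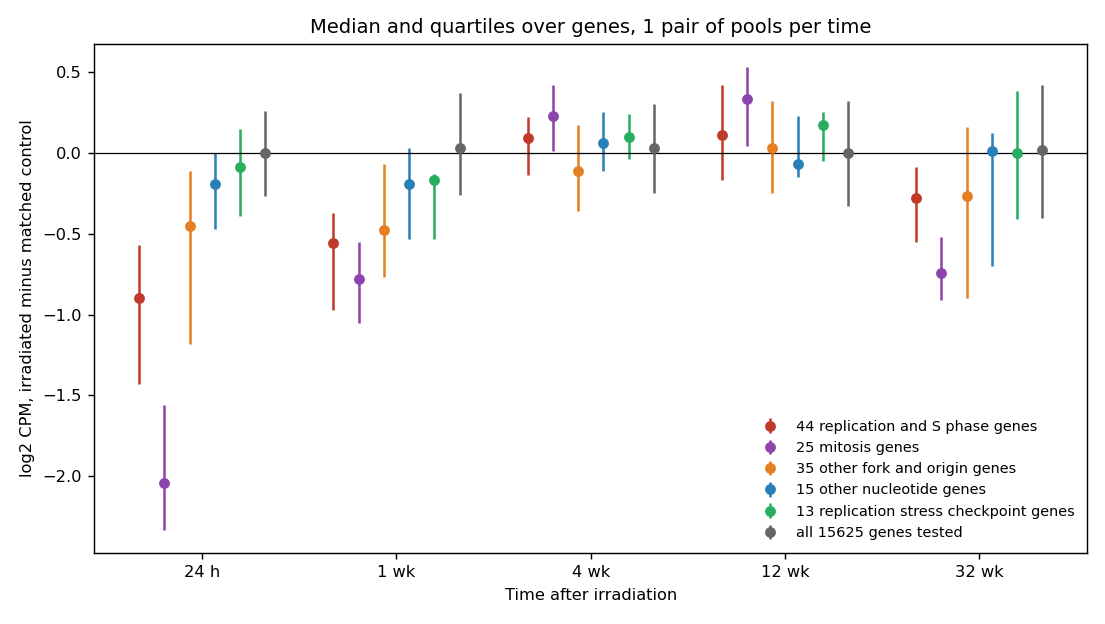
Median (point) and quartiles (bar) over the genes of each list of log2 CPM, irradiated minus matched control, by time, with 1 pair of pools per time and all 15625 genes tested in grey. The lists drawn are the replication set, mitosis, other fork and origin genes, other nucleotide genes and replication stress checkpoint, among which mitosis has the lowest median at 24 hours, −2.04, and the replication set the next, −0.90, and at 4 and 12 weeks the medians drawn lie between −0.11 and 0.33.

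Among 32 regulators of E2F, RB and the G1 to S step, 1 rose and 1 fell at 24 hours (background 0.602% and 0.454% of all genes). Cdkn1a stood at 74.8, 72.6, 58.7, 48.2 and 68.3 CPM in controls and at 516.0, 274.5, 185.3, 109.8 and 82.6 CPM in irradiated pools. Every irradiated pool was above every control. The log2 change was 3.0 ± 0.19 at 24 hours (adjusted p = 0.000121), 2.09 ± 0.20 at 1 week (0.0187), 1.52 ± 0.21 at 4 weeks (0.0498), 0.77 ± 0.22 at 12 weeks (0.288) and 0.36 ± 0.23 at 32 weeks (0.503). The 24-hour call held in each of the 12 alternatives. At 1 week the adjusted p was 0.0865 without the 1-week control, 0.0614 without the 32-week control and 0.0606 with total count scaling. The 4-week call was lost in 7 of the 12, with an adjusted p of up to 0.154 without the 1-week control. In the 1 irradiated pool of 4 weeks, Cdkn1a was above all controls. The replication set as a sum stood there at 107.9% of its matched control. The part of Cdkn1a in the levels of the replication genes was not tested. Ccna2, cyclin A2, which drives S phase and the entry into mitosis, fell to 3.92 CPM against 33.2 ± 4.86 CPM (SD, n = 5; log2 −3.08 ± 0.33, adjusted p = 0.00265).

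Markers of T cells, B cells and thymocytes moved with the set at some times. The 10 T cell markers summed to 60.2% of the matched control at 24 hours and, in time order after that, to 57.5%, 70.0%, 114.0% and 49.5%. For 10 B cell markers these shares were 66.3%, 52.6%, 111.6%, 101.9% and 111.4%, and for 6 thymocyte markers 33.9%, 47.0%, 51.9%, 241.5% and 24.7%. For 6 NK cell markers the shares were 91.5%, 67.8%, 98.4%, 88.6% and 93.3%, and for 5 plasma cell markers 124.3%, 109.5%, 112.7%, 112.2% and 179.9%. Those of the 44 replication genes were 58.8%, 68.6%, 107.9%, 108.3% and 83.3%. A sum can differ from most of its genes, as at 32 weeks, where 6 of the 10 B cell markers lay below the matched control. The T cell sum ranged over 800.4 to 1396 CPM in controls and 481.8 to 974.1 CPM in irradiated pools, the B cell sum over 2089 to 4694 and 1384 to 5228 CPM, and the thymocyte sum over 52.0 to 340.3 and 24.4 to 182.2 CPM. At 24 hours 9 of 10 T cell, 9 of 10 B cell and 6 of 6 thymocyte markers were below the matched control, and Cd3d, Cd3g, Cd79a and Cd79b, parts of the T and B cell antigen receptors, fell. These 4 calls were lost in some alternatives, with the largest adjusted p at 0.0743 for Cd3d without the 12-week control, 0.0806 for Cd3g with limma on log2(FPKM + 1), and 0.0657 for Cd79a and 0.107 for Cd79b without the 1-week control. All T and B cell markers were above 0 in every pool, while the thymocyte genes Rag1, Rag2 and Ptcra were at 0 in the 24-hour irradiated pool, Rag1 and Ptcra in the 1-week irradiated pool and Rag2 in the 1-week control. Sums of markers of alveolar type 2 cells, alveolar macrophages, monocytes with interstitial macrophages, and neutrophils lay above the matched control at 24 hours, at 136.6%, 136.2%, 155.1% and 167.9% of it. Of these markers 2 of 7, 1 of 9, 3 of 8 and 1 of 6 rose, where 0.602% of all genes did. Endothelial, fibroblast and erythroid sums were at 92.6%, 105.6% and 124.6% of the matched control at 24 hours. Later shares moved widely, from 206.2% at 1 week to 21.1% at 12 weeks for alveolar type 2 cells. For alveolar macrophages they ran from 39.1% at 4 weeks to 292.4% at 32 weeks, where the erythroid sum was at 296.4%. The part of these cell types in the levels of the replication genes was not tested.

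**Figure D5:**
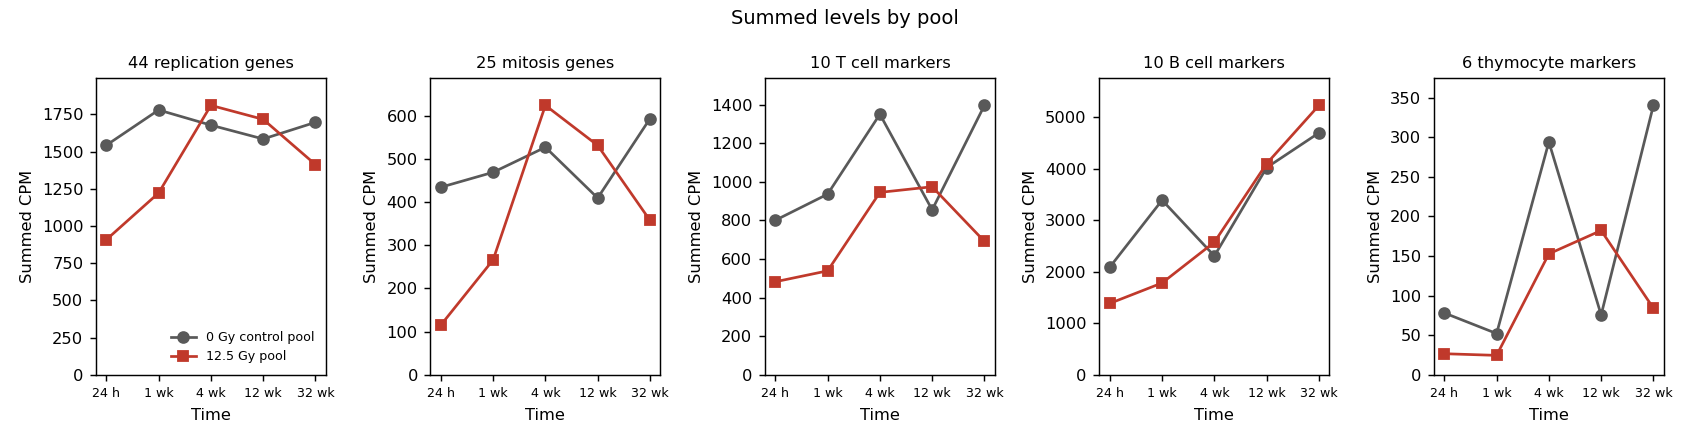
Summed CPM (y axis, from 0) by time (x axis) of 44 replication genes, 25 mitosis genes and the T cell, B cell and thymocyte markers, 1 point per pool, grey circles for 0 Gy and red squares for 12.5 Gy. The replication and mitosis sums of the irradiated pools lie below all controls at 24 hours, 1 week and 32 weeks, and above the control of the same time at 4 and 12 weeks.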

How the data were processed

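RNA of 3 mice per pool was extracted and sequenced in 5 irradiated and 5 control pools, with kits that the labels name as Qiagen RNeasy PLUS, Illumina NexteraXT and Clontech ultralow. The submitters' processing notes list build GRCm38.p4, STAR 2.4.2a, Trimmomatic 0.32, Cuffdiff without a version and Cufflinks 2.0.2. What each tool did, and which annotation was used, is not given in the sources used here. Expected counts, which estimate fragments per gene, and FPKM of 45786 genes are the values the authors deposited. The deposited counts had been scaled, with low values lying at multiples of a library's step (0.5763 to 1.3847; 77.1% to 79.6% of low values whole within 0.05), and division by the step gave the fragments. Deposited totals were 9983710 to 13509769. Symbols and GRCm38 exon overlaps came from GENCODE M21, with 45223 identifiers matched and 563 not.

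For the tests the expected counts were made whole by rounding, and TMM scaled the libraries (factors 0.934 to 1.086). edgeR 4.0.16 (R 4.3.3; robust quasi-likelihood F tests, 2-sided, Benjamini-Hochberg over all 15625 genes with filterByExpr at a minimum count of 10) gave the tests. Each irradiated pool was set against the 5 controls of all ages (4 residual degrees of freedom), with the single irradiated pool taken to vary as the controls do, and these tests share their controls. Over the 5 times the model had a block for time (4 degrees of freedom), the changes of the effect with time left 3 and the slope in controls 6. Matched log2 differences used a prior count of 2 and have no test. Nothing in the labels says that pools came from separate experiments, so p-values measure the spread between pools, biological or technical. Floors of 3 fragments cover counting error only. The models were checked on simulated data. DESeq2 1.42.0, limma 3.58.1 on log2(FPKM + 1) and log2(FPKM + 0.1), other scalings, no filter, the estimated fragments (added after the data were seen) and leaving out pools were alternatives. The block pairs pools by their labelled time, and a fit without it is among the alternatives.

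The 44 genes and the gene and marker lists were chosen with earlier results of these data known. All 44 are named, with full statistics at 24 hours for those that passed and for Mcm6, Mcm10, Cdc45, Cdc6, Cdt1, Gmnn, Pcna, Pola1, Tyms, E2f1 and Ccne1, and over the 5 times for the 5 smallest p. Other lists give up to 4 genes that passed, those of smallest p, and Cdkn1a.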

Additional observations from a re-analysis of the deposited data

Results flagged for a closer look

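Of 90 groups of 5 pools (each gene and the sum, in controls and in irradiated pools), 5 held a pool whose gap to the nearest of the others was over 0.71 of the group's range. Chance alone gives about 1 in 20 such groups where the 5 values are independent and of 1 kind. These groups share their libraries, and the irradiated pools differ in time, so 5 of 90 cannot be read against that rate. Rfc3 was at 20.8 CPM in the 1-week control, against 13.1 to 14.7 CPM in the other controls, and at 19.0 CPM in the 4-week irradiated pool, against 12.0 to 13.5 CPM. Orc1 was at 4.66 CPM in the 4-week control, against 0.882 to 1.55 CPM, and at 0.0 CPM in the 24-hour irradiated pool, against 1.64 to 2.07 CPM. Orc6 was at 23.6 CPM in the 24-hour control, against 21.1 to 21.7 CPM in the other controls.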

How the results depend on the processing

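The count of genes called lower at 24 hours was 7, and 6 to 10 with other scalings, without the filter, with estimated fragments or with limma on log2(FPKM + 0.1). It was 23 with DESeq2, 4 with limma on log2(FPKM + 1), and 3 to 8 leaving out 1 control at a time, lowest without the 1-week control. Where edgeR called 0, DESeq2 called 2 lower at 1 week, 1 lower at 32 weeks, 2 lower for 24 hours against later times and 2 higher for the trend over log2 days. The cause was not tested. E2f1 at 24 hours turned from −0.03 to 0.06 and 0.08 with limma on log2(FPKM + 1) and log2(FPKM + 0.1), and ranged from −0.11 to 0.07 leaving out 1 control, at 0.0 without the 24-hour control. Of 231 alternatives of counts of the set, 224 equalled the main count or lay within 1.5 times of it. Most of these were a count of 0 against a main count of 0. Among the counts of calls, only that of genes called lower at 24 hours was above 0 in the main fit. A match of 0 with 0 says little about how firm a result is. Without the replicate block (pools paired by time), the median of the set over the 5 times was −0.31, and 0 genes passed. The difference between 24 hours and later could not be fitted without the 24-hour pair. Genes of few fragments, Dscc1 and Orc1, limit what depth can show.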
